A study of Mus musculus with 2 samples.

Results

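Vasopressin-rich neurons low in oxytocin were taken as cells with at least 10 UMIs (unique molecular identifiers, each marking a captured RNA molecule) of Avp and under 10 of Oxt, among cells with at least 300 detected genes. They numbered 79 of 5260 kept cells, 18 in the Sim1 heterozygous and 61 in the control library. Cells were tdTomato+ sorted hypothalamic cells of CD-1 pups at postnatal day 1 to 4, read by Drop-seq, a droplet method that counts transcript 3′ ends. The Sim1 heterozygous library had the genotype Sim1-Cre;tdTomato+/-;Sim1+/- and the control library Sim1-Cre;tdTomato+/-, so both carried the Cre driver and the reporter. There was 1 library per genotype, each pooled from 6 animals per the sample labels, so no difference below has a replicate check, no p-value is given, and all intervals (95%) cover counting error only. The Ai14 reporter marks cells that express Sim1-Cre or descend from cells that did, so the sort takes in Sim1-lineage neurons outside the paraventricular nucleus as well.

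Avp encodes the precursor of vasopressin, the antidiuretic hormone, and of its carrier neurophysin. Magnocellular neurons of the paraventricular and supraoptic nuclei make it in bulk and release it from the posterior pituitary, while parvocellular neurons release it with corticotropin-releasing hormone at the median eminence to drive the stress axis, and the suprachiasmatic nucleus holds a further vasopressin population. Sim1, Otp and Pou3f2 are transcription factors that these neuroendocrine lineages need to form in mice.

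The cells were defined by a pair of neighbouring hormone genes, so the start regions of both are shown, from RefSeq (GRCm38.p6), 250 bases before to 50 after the start. The Avp window is chr2:130582539-130582838 on the minus strand and the Oxt window chr2:130575919-130576218 on the plus strand. Capitals mark matches, on either strand, to the E-box CACGTG and the TATA-box form ATAAATA. They also mark TGACC, the core read by many nuclear receptors.
Avp: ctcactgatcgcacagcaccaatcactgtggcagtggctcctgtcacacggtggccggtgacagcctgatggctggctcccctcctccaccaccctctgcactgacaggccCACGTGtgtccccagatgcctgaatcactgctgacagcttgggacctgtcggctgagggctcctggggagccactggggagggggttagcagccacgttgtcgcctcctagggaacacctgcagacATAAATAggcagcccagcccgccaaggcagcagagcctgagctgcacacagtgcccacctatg
Oxt: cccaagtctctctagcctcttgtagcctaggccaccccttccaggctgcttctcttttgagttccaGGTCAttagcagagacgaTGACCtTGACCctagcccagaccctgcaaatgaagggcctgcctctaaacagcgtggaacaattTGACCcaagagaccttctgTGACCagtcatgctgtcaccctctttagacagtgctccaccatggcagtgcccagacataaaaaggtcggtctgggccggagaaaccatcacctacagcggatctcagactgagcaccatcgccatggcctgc
CACGTG stood 139 bases and ATAAATA 13 bases before the RefSeq start of Avp. Oxt had 4 TGACC matches on its own strand and 1 on the other. Of 32851 RefSeq promoters of that length, 7.15% held CACGTG, 5.60% ATAAATA and 40.5% TGACC. The cAMP response element TGACGTCA (1.79% of promoters) and the hexamer TACGTG (3.23%) were searched as well and are not in these windows. The matches are descriptions of the letters only.

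The selecting values were spread widely. Sim1 heterozygous cells had 11 Avp UMIs at the lowest, 66 at the median and 324 at the highest. Control cells had 10, 107 and 418. Avp took a median 7.16% of a cell's UMIs in the Sim1 heterozygous and 6.20% in the control cells, so the ranges overlapped almost in full. No kept cell of either library had 8 or 9 Avp UMIs, since the highest count below the limit was 7 in both. Only 1 Sim1 heterozygous and 6 control members had 10 to 14. The Oxt limit cut through a continuum in the control library, where 12 members had 7 to 9 Oxt UMIs and 7 excluded cells had 10 to 12. Sim1 heterozygous cells had 1 on each side.

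"Low in oxytocin" held only relative to the counts. Oxt was found in 7 of 18 Sim1 heterozygous and 48 of 61 control members, at 940 and 1592 CPM (UMIs per 1000000 UMIs in all). Cells with under 10 UMIs of both hormones had 3.95 and 13.8 CPM in the same order of libraries. All 33 control members with at least 100 Avp UMIs had an Oxt UMI, as had 6 of 7 such Sim1 heterozygous members. Cells with at least 10 UMIs of both hormones were deeper, with a median of 4892 total UMIs in the Sim1 heterozygous and 3507 in the control library, against 1852.5 and 1629 in the members. Whether a cell fell under the Oxt limit through its depth or through its Oxt level cannot be told apart. Per 100 Avp UMIs, members held 1.51 Oxt UMIs in the Sim1 heterozygous and 2.35 in the control library, against 2.90 and 4.90 in cells rich in both.

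**Figure D1:**
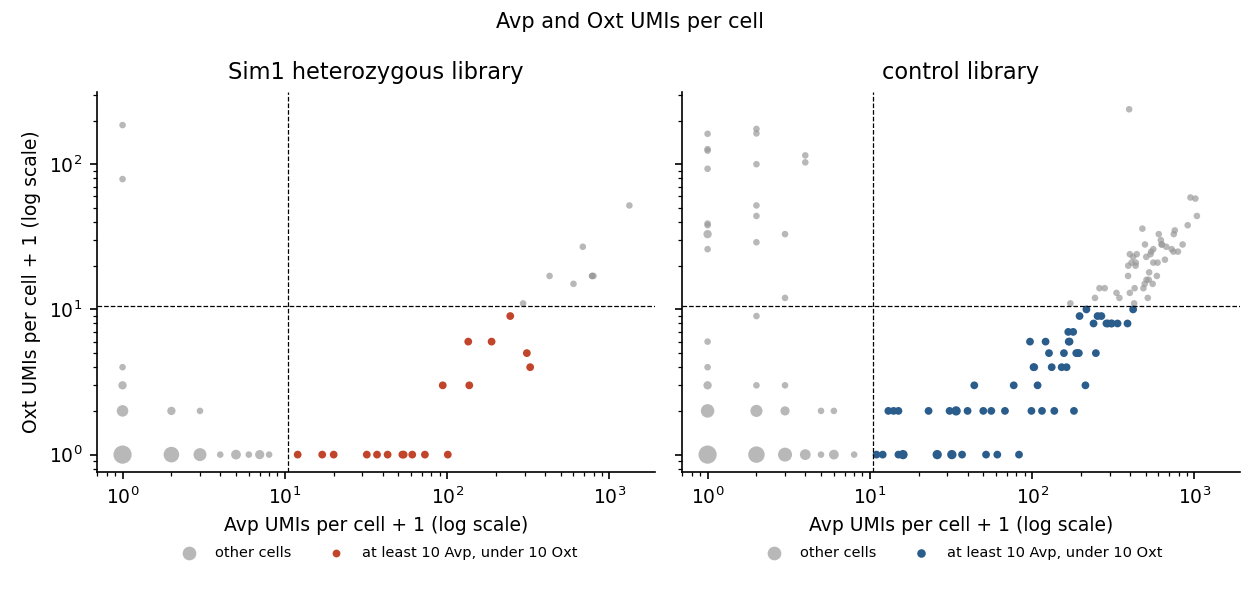
Avp UMIs (x axis) and Oxt UMIs (y axis) per kept cell, both plus 1 on log scales, in the Sim1 heterozygous (left) and control (right) library. Dashed lines are the limits of 10 UMIs and larger points stand for more cells. Oxt climbs with Avp among vasopressin-rich cells, and in the control library the points cross the Oxt limit without a gap.

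The share of cells meeting the rule was lower in the Sim1 heterozygous library. It was 0.733% [0.435 to 1.16] of 2454 Sim1 heterozygous and 2.17% [1.67 to 2.78] of 2806 control cells, a ratio of 0.337 [0.188 to 0.579]. Cells were also thinned to 857 UMIs, which left out the shallower ones, 613 Sim1 heterozygous and 156 control cells. Those held 5 of the 18 Sim1 heterozygous members and 0 of the 61 control members. With limits of 5 UMIs for both hormones, 19 of 1841 thinned Sim1 heterozygous cells (1.03% [0.622 to 1.61]) met the rule. In the control library 71 of 2650 (2.68% [2.10 to 3.37]) did. Among cells with at least 10 Avp UMIs, those low in Oxt made up 18 of 26 (69.2% [48.2 to 85.7]) in the Sim1 heterozygous and 61 of 111 (55.0% [45.2 to 64.4]) in the control library, and these intervals overlap. Members carried 24.2% of the Sim1 heterozygous and 22.0% of the control library's Avp UMIs. The nearest classes were fewer in the Sim1 heterozygous library too. Cells with at least 10 Oxt UMIs numbered 10 of the 2454 Sim1 heterozygous and 69 of the 2806 control cells. Of these, 8 and 50 also had at least 10 Avp UMIs, so a lower share was not particular to the members. Differences between pools in pup age, dissection or sorting were not tested.

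Libraries held 5397693 (Sim1 heterozygous) and 6525080 (control) UMIs, and members, without Avp and Oxt, 28903 and 108119, so 3 UMIs correspond to 104 and 27.7 CPM. Below, CPM are UMIs summed over cells per 1000000 UMIs without Avp and Oxt, and log2 ratios have 1 UMI added to each sum. No doublet caller was run and doublets may remain. Markers of other cell types were near 0 in members. Of 12 astrocyte or radial glia genes, 10 had no UMI and the list summed to 2 UMIs in each library's members. The oligodendrocyte lineage list had 2 and 5 UMIs, and microglia 0 and 1. Fibroblast and red blood cell genes had 0 in both. The pituitary list had 0 UMIs in Sim1 heterozygous and 34 in control members, 32 of them Gh. Mitochondrial genes gave 1.37% and 1.11% of members' UMIs, against 1.03% and 1.14% in all other cells.

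The marker genes chosen for these neurons were high in them, with Pdyn too sparse to judge. Gsta4, Caprin2, Angpt1 and Gal were among the 9 highest genes of the ranking described next. The markers were chosen with earlier results of these data known, so their high levels and ranks are no independent result. Pdyn, the dynorphin precursor, had 4 UMIs in 4 Sim1 heterozygous members (138 CPM, other cells 17.4) and 6 UMIs in 6 control members (55.5 CPM, other cells 19.1). Avp UMIs also occurred outside the members, and whether they came from free RNA was not tested. Avp had a UMI in 10.4% of other Sim1 heterozygous cells and 4.0% of 50 glia-like ones (median 1577.5 and 903.5 UMIs), and in 20.9% of other control cells and 23.1% of 39 glia-like ones (1779 and 1266 UMIs). Thinned to 857 UMIs, it had a UMI in 0 of 26 glia-like Sim1 heterozygous and 6 of 39 glia-like control cells. Gal had a UMI in 55.6% of Sim1 heterozygous and 62.3% of control members and in 0 glia-like cells, which allows up to 7.11% and 9.03% of them. Angpt1 was found in 33.3% of Sim1 heterozygous members against 2.0% of glia-like cells, and in 36.1% of control members against 12.8%. Thinned to 857 UMIs, the Angpt1 shares were 30.8% and 3.85% in the Sim1 heterozygous and 23.0% and 7.69% in the control library. Gsta4 was less distinct from glia-like cells, at 27.8% of Sim1 heterozygous members against 6 of 50 glia-like cells, and 29.5% of control members against 10.3%. Thinned, its shares were 15.4% (2 of 13 members) against 11.5% in the Sim1 heterozygous library, which counting error cannot tell apart, and 21.3% against 5.13% in the control library.

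Against all other cells, 58 of 1237 genes with enough UMIs (4.69%) were at least 2-fold higher in both libraries and 33 (2.67%) at least 2-fold lower. A gene could enter through its UMIs in members alone or through those expected at the level of the other cells alone. Genes that differ strongly thus enter more readily, so these counts and the list counts below partly follow from the filter. The comparison with oxytocin-rich cells used the same form of filter. Cells with both hormones are among these other cells. Leaving out all hormone-rich cells gave 60 and 36, scaling by the median ratio 47 and 46, and counting Avp and Oxt in the totals 49 and 45. The ratios describe cells picked by their own hormone counts.

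The 9 highest genes held a detoxifying enzyme, secreted factors, RNA-binding proteins and a channel subunit. Gsta4 (chromosome 9 from 78182774 to 78209349, mm10), a glutathione transferase, had 208 CPM in Sim1 heterozygous members and 5.42 in other cells, and 268 CPM in control members and 12.1 in other cells. Its log2 ratio was 5.43 [3.70 to 6.55] in the Sim1 heterozygous and 4.50 [3.80 to 5.11] in the control library, on only 6 and 29 UMIs. Angpt1 (chromosome 15 from 42424723 to 42676977), angiopoietin-1, the ligand of the endothelial receptor Tek, had 588 CPM in Sim1 heterozygous members against 26.9 in other cells, and 462 against 48.0 in the control library. Every library thus had Angpt1 high in the members, on 17 UMIs in 6 Sim1 heterozygous and 50 UMIs in 22 control cells. Gal, the neuropeptide galanin, stood at 1211 CPM in Sim1 heterozygous members against 87.8, and 786 CPM in control members against 112. Crh, which encodes corticotropin-releasing hormone, was at 588 CPM against 71.2 in the Sim1 heterozygous and 879 CPM against 38.3 in the control library, and its UMIs sat in 3 and 15 cells.

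Caprin2 and Ptbp3 encode RNA-binding proteins. Caprin2 (chromosome 6 from 148842492 to 148896237), known in rats to bind vasopressin mRNA, had 969 CPM in Sim1 heterozygous members and 38.3 in other cells, and 453 CPM in control members and 43.0 in other cells. Its log2 ratios, 4.70 [4.04 to 5.23] and 3.42 [2.93 to 3.84], had intervals that do not overlap, with the Sim1 heterozygous ratio above the control one. Ptbp3 had log2 ratios of 3.31 and 2.88. Dlk1, an imprinted gene for a Notch-pathway protein, was at nearly the same level in members of both libraries, 865 CPM in the Sim1 heterozygous (other cells 64.8) and 879 CPM in the control library (other cells 98.6). Zdbf2, another imprinted gene, had log2 ratios of 2.42 and 2.08.

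**Figure D2:**
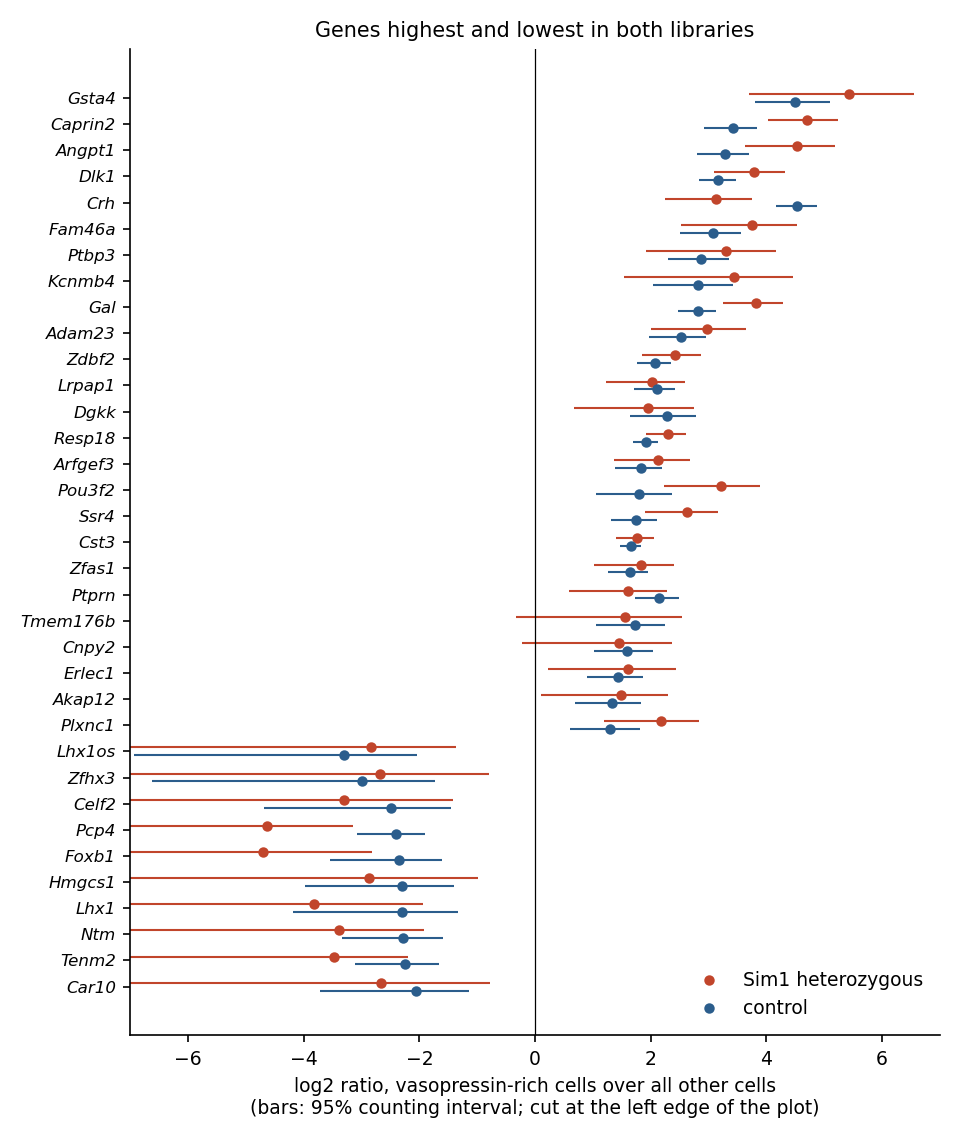
Log2 ratio of vasopressin-rich over all other cells (x axis) for the 25 highest and 10 lowest genes, Sim1 heterozygous in red above control in blue. Bars are 95% counting intervals and run wide in the Sim1 heterozygous library. Gsta4 has the highest Sim1 heterozygous ratio, 5.43, and the bars of genes with 0 UMIs are cut at the left edge.

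Kcnmb4, an accessory subunit of the calcium-activated BK potassium channel, had 173 CPM in Sim1 heterozygous members against 18.9 in other cells and 194 against 28.5 in the control library. Control cells rich in both hormones had 201 CPM, and such Sim1 heterozygous cells 85.9 CPM on 3 UMIs. Kcnmb4 was 1 of 4 tested members of a list of 44 potassium, calcium, sodium and HCN channel genes. No other tested channel gene differed by 2-fold in both libraries, beside 4.69% higher and 2.67% lower over all genes tested. Pou3f2, which mice need for vasopressin, oxytocin and Crh neurons, was at 484 CPM in Sim1 heterozygous members against 55.9, and 203 CPM in control members against 60.8.

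Over all genes tested, 4.69% were at least 2-fold higher in both libraries and 2.67% lower, with median log2 ratios of 0.18 and 0.09. Of 12 tested prohormone processing genes, 4 were higher by that measure and 0 lower, with medians of 0.76 and 0.63. They were Resp18, a granule protein, at 2560 CPM in Sim1 heterozygous members against 527, and 1878 CPM in control members against 498, Ptprn, a granule membrane protein, with log2 ratios of 1.61 and 2.14, Ssr4, a translocon-associated subunit, with 2.62 and 1.75, and Scg5, the chaperone of prohormone convertase 2, with 1.48 and 1.03. The convertase gene itself, Pcsk2, was at 0.30 and 0.60, and Cpe, carboxypeptidase E, at 0.02 and 0.18. Of 11 tested secretory load genes only Caprin2 passed 2-fold in both, although the median stood at 0.95 and 0.79. Caprin2 encodes an RNA-binding protein and is also a marker chosen for these neurons. The chaperone Hsp90b1 had 2387 CPM in Sim1 heterozygous members against 1246, and 1878 CPM in control members against 1036. Lrpap1, Cnpy2 and Erlec1, proteins of the endoplasmic reticulum, were also among the 25 highest. Against control cells with at least 10 Oxt UMIs, the median was -0.06 for 14 tested prohormone processing genes and -0.08 for 15 tested secretory load genes. Over all genes tested it was 0.04. As lists, these genes thus stood near the level of the nearest cells, though 3 prohormone processing genes were at least 2-fold higher (2.27% of all genes were).

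Among the genes lower in members were regional transcription factors of other hypothalamic neurons. Of 38 genes on the transcription factor list 6 were tested. Of these, 3 were lower in both libraries (Foxb1, Lhx1 and Zfhx3) and 1 higher (Pou3f2). Over all genes tested, 2.67% were lower and 4.69% higher. The 3 lower genes entered the comparison only through their level in other cells. Foxb1, a mammillary factor, had 0 UMIs in Sim1 heterozygous members, at least 8.73-fold below other cells at 906 CPM (upper log2 bound -2.83). Its 10 control UMIs (92.5 CPM, other cells 521) all lay in 1 cell. Lhx1 had 0 UMIs in Sim1 heterozygous members against 492 CPM, at least 4.74-fold lower (upper log2 bound -1.95), and 46.2 CPM in control members against 274. Lhx1 (84518284 to 84525535) and its neighbour Lhx1os (84525660 to 84535831) lie on opposite strands of chromosome 11 and do not overlap in GENCODE M21. The use of strand in the counts is not given. Zfhx3 had 0 UMIs against 223 CPM, at least 2.15-fold lower (upper log2 bound -0.80), in the Sim1 heterozygous library. It had 18.5 CPM against 222 in the control library. Control cells rich in both hormones were low as well, at 44.0 CPM of Foxb1, 12.6 of Lhx1 and 6.28 of Zfhx3. Lhx1 and Zfhx3 are also prominent in the suprachiasmatic nucleus. Of 3 tested genes on a list for that nucleus, these 2 were lower in both libraries and 1, Dlk1, was higher, beside the same shares over all genes. Six6 and Vip, further genes of that nucleus, had 0 UMIs in members, but they were also under 2 CPM in other cells of both libraries.

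Pcp4, a regulator of calmodulin, had 34.6 CPM in Sim1 heterozygous members against 1720 in other cells and 240 CPM in control members against 1322. Of 11 tested calcium-binding and calcium-signalling genes, 0 were higher and 3 lower in both libraries. These were Pcp4, Calb2 (log2 ratios -1.99 and -3.54) and Atp2b1, a plasma membrane calcium pump (-2.51 and -1.16). Genes of immature neurons were lower for 4 of 11 tested and higher for 0, with medians of -0.75 and -0.72. Over all genes tested, for these lists alike, 2.67% were lower and 4.69% higher, with medians of 0.18 and 0.09. Against control cells with at least 10 Oxt UMIs the medians were -0.07 for the calcium and -0.16 for the immature neuron genes, so such cells were similar. Tubb2b, a tubulin of growing neurons, had 934 CPM in members of both libraries, against 2057 in other Sim1 heterozygous and 2307 in other control cells. Axon guidance genes gave 3 lower and 1 higher of 5 tested, the lower being Nrp1, Nrp2 and Epha5 and the higher Plxnc1, a semaphorin receptor. Of 17 tested synapse genes 1 was lower in both, Gria2, an AMPA receptor subunit, at log2 ratios of -1.36 and -1.27.

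Slc17a6, which loads glutamate into vesicles, had 519 CPM in Sim1 heterozygous and 333 CPM in control members, against 786 and 615 in other cells. Gad1, Gad2 and Slc32a1, the GABA synthesis and transport genes, had 0 UMIs in members of both libraries. Other cells were low too, at 50.4 and 28.9 CPM for Gad2, 6.16 and 8.62 for Slc32a1 and 2.24 and 3.92 for Gad1 (Sim1 heterozygous, then control), so at this depth the zeros tell little. Respiratory chain genes stood at the level of other cells, with 0 of 16 tested past 2-fold either way and medians of -0.01 and 0.13. Ribosomal protein genes had medians of 0.84 and 0.52, with 1 of 36 past 2-fold in both.

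The closest cells were those rich in both hormones. In the control library Angpt1 was at 462 CPM in members, 848 in cells with at least 10 UMIs of both hormones, 32.8 in the 19 cells rich in Oxt only and 27.4 in cells with under 10 of both. Gal followed the same pattern, at 786, 892, 49.2 and 92.7 CPM. So did Dlk1, at 879, 867, 49.2 and 79.3 CPM. These 3 genes were high at either side of the Oxt limit and low where Oxt stood alone. Caprin2 was at 453, 484, 148 [67.5 to 280.0] and 30.5 [26.3 to 35.2] CPM, so cells rich in Oxt only lay between. Pcp4 had the opposite pattern, at 240, 176, 1393 and 1351 CPM. Resp18 was high in every hormone-rich class, at 1878, 2281 and 1246 CPM, against 445.

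**Figure D3:**
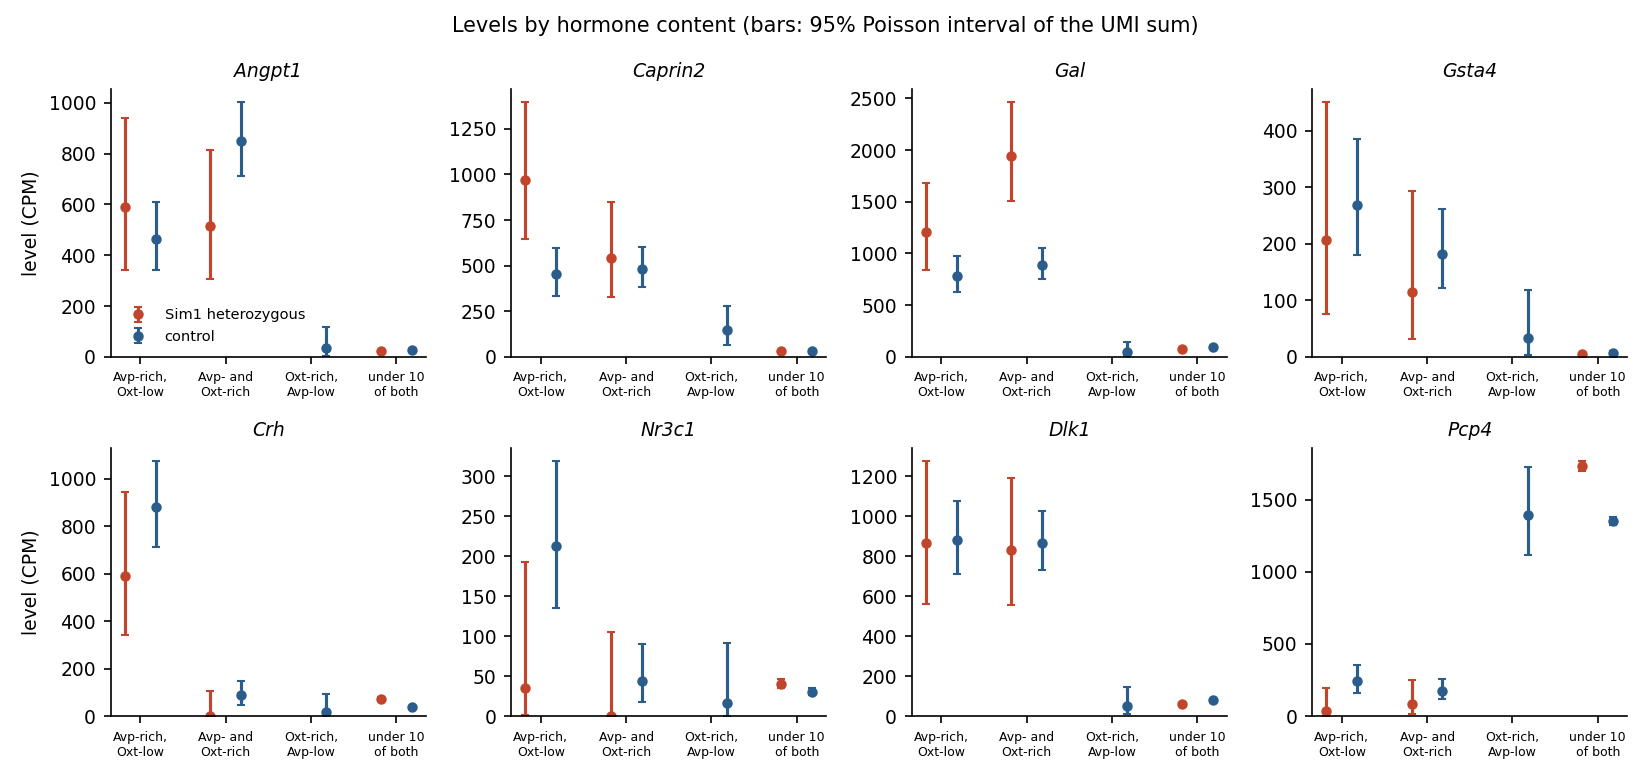
Level (CPM, y axis) of 8 genes in 4 classes of cells by hormone content (x axis), Sim1 heterozygous in red and control in blue, with 95% Poisson intervals. The Sim1 heterozygous class rich in Oxt only (2 cells) is not drawn. Angpt1, Gal and Dlk1 are high in both Avp-rich classes, while Crh is high only in the class low in Oxt.

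Members set against all control cells with at least 10 Oxt UMIs, of which 50 of 69 were also rich in Avp, showed 30 of 1323 genes (2.27%) at least 2-fold higher and 14 (1.06%) at least 2-fold lower. With Avp and Oxt counted in the totals, the split was 38 higher and 5 lower. Crh had the highest ratio, at 879 CPM in members against 68.1 in oxytocin-rich cells (log2 3.61 [2.89 to 4.58]). Scg2, secretogranin II, was at 2248 CPM against 595 (1.91 [1.60 to 2.23]). Nr3c1, the glucocorticoid receptor, was at 213 CPM against 36.3 (2.44 [1.34 to 3.92]). Dgkk, a diacylglycerol kinase, had a log2 ratio of 2.35 [1.38 to 3.57]. The lower genes included Cfl1, cofilin, at 296 CPM against 731, and Tshz1, a zinc finger factor, at 120 against 295. Mrps26, which lies beside Avp and Oxt on chromosome 2, was at 213 CPM against 441. Set against the 19 cells rich in Oxt alone, 94 genes were higher and 127 lower, a comparison chosen after the data were seen.

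Members were not uniform, and the split by Crh was also chosen after the data were seen. At least 3 Crh UMIs were found in 3 Sim1 heterozygous and 9 control members, which held 17 of 17 and 85 of 95 Crh UMIs. Their Avp medians were low, 16 against 93 in the other Sim1 heterozygous members and 31 against 123 in the other control members. Angpt1 and Gsta4 had 0 UMIs in all 12 of them, and Caprin2 1 UMI in 1 control cell. In control members with Crh, Scg2 was at 6392 CPM against 1394 in the rest (log2 2.20 [1.82 to 2.57]). Nr3c1 was found in 8 of these 9 cells against 9 of the other 52, at 542 against 145 CPM, and Otp at 271 against 1037 CPM. Most Crh-rich cells of the libraries were not members, since 35 Sim1 heterozygous and 33 control cells had at least 3 Crh UMIs.

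A larger set carried the other markers. Angpt1, Caprin2 or Gsta4 had a UMI in 12 of 18 Sim1 heterozygous and 35 of 61 control members, and only 1 of these, a control cell, had at least 3 Crh UMIs. Cells with one of the 3 markers had an Avp median of 103 UMIs against 25 in those without (Sim1 heterozygous) and 167 against 31 (control). Neither pattern was seen in 3 Sim1 heterozygous and 18 control members. At this depth, a cell with none of these UMIs may still express the genes. Members with 10 to 29 Avp UMIs, 3 Sim1 heterozygous and 11 control cells, had 0 UMIs of Angpt1, Caprin2 and Gsta4, where 3 UMIs would be 519 and 131 CPM. Control members with 100 or more Avp UMIs had 785 CPM of Angpt1 and 734 CPM of Caprin2. Median UMIs without hormones were 1277 and 1618 in those control classes. Only 1 member, in the control library, had at least 10 UMIs of Sst, Nts, Trh, Pmch, Cartpt or Tac1.

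**Figure D4:**
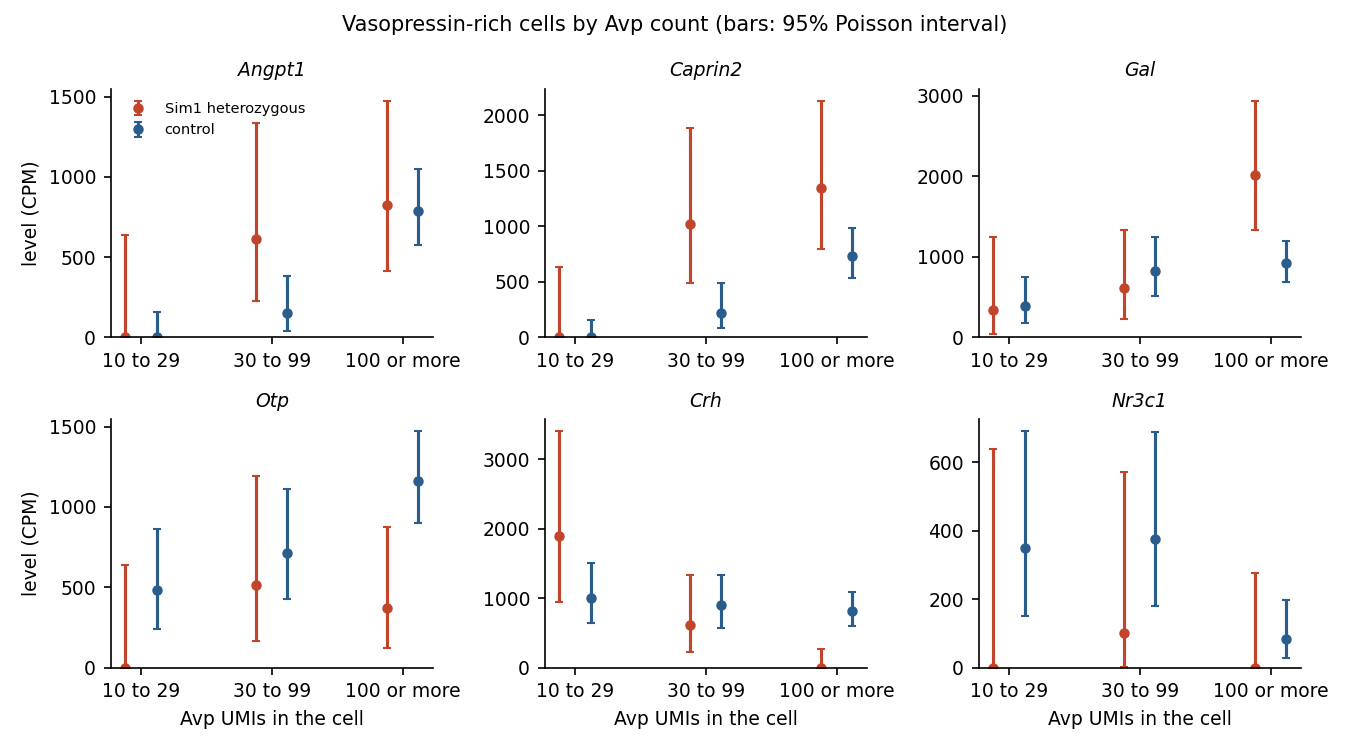
Level (CPM, y axis) of 6 genes in members grouped by Avp UMIs per cell (x axis), Sim1 heterozygous in red and control in blue, with 95% Poisson intervals. Angpt1 and Caprin2 are at 0 in the class of 10 to 29 Avp UMIs in both libraries. Crh in the control class of 100 or more comes from 3 cells.

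Between genotypes, with Sim1 heterozygous over control members, 294 of 1550 genes (19%) were at least 1.5-fold higher and 209 (13.5%) at least 1.5-fold lower, with a median log2 ratio of 0.10. Adding 0.5 UMI in place of 1 gave 273 higher and 256 lower, and scaling by the median ratio 245 and 250. The interval left out 0 for 75 higher and 45 lower genes. Sim1, the gene lost on 1 allele, had 3 UMIs (104 CPM) in Sim1 heterozygous and 22 UMIs (203 CPM) in control members, with a log2 ratio of -0.62 [-3.35 to 0.76], too few to tell from no difference. The labels do not name the deleted stretch of Sim1, and UMIs from the 3′ end may lie outside it and then check nothing. Its level in all other cells differed by a log2 ratio of -0.28. Otp, which acts beside Sim1 in these lineages, had 10 UMIs (346 CPM) in Sim1 heterozygous and 98 (906 CPM) in control members, a log2 ratio of -1.27 [-2.49 to -0.45] against -0.61 in other cells. Its level was thus lower in Sim1 heterozygous cells inside and outside the group.

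Scg2 was among the genes lower in Sim1 heterozygous members. It had 17 UMIs (588 CPM) in Sim1 heterozygous and 243 UMIs (2248 CPM) in control members, a log2 ratio of -1.86 [-2.74 to -1.23], against 0.24 in other cells. Among members with under 3 Crh UMIs the levels were 226 CPM in the Sim1 heterozygous and 1394 CPM in the control library, so the order was the same without the Crh-rich cells (6 of the remaining control members still held 10 Crh UMIs between them). In cells rich in both hormones Scg2 ran the other way, at 1517 CPM [1136 to 1984] in 8 Sim1 heterozygous and 697 CPM [574 to 840] in 50 control cells. The difference between the ratios was not tested. Vamp2, a synaptic vesicle SNARE, had 0 UMIs in Sim1 heterozygous members and 40 UMIs in 29 control members, at least 3.56-fold lower (upper log2 bound -1.47). Other cells had a log2 ratio of -0.09. Nefm, a neurofilament subunit that overlaps Nefl in the annotation, was at 173 CPM in Sim1 heterozygous and 601 CPM in control members.

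Gh, growth hormone, had 0 UMIs in Sim1 heterozygous members, at least 2.85-fold below the 32 UMIs (296 CPM) of control members (upper log2 bound -1.13). It had 0 UMIs in every Sim1 heterozygous cell and 341 CPM in other control cells, so control members were close to the rest of their library. Cwc22, a splicing factor, was highest on the other side, at 657 CPM in Sim1 heterozygous and 111 CPM in control members (log2 2.52 [1.45 to 3.74]), and it was also higher in other Sim1 heterozygous cells (1.83). Calb1, the calcium buffer calbindin, was at 727 CPM in Sim1 heterozygous and 259 CPM in control members, and at 344 and 150 CPM in their other cells. Stau2, an RNA transport protein, was at 484 CPM in Sim1 heterozygous and 102 CPM in control members, with a ratio of 2.23 against 0.14 in other cells.

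Of the markers, Caprin2 and Gal were higher in Sim1 heterozygous members. Angpt1 and Gsta4 could not be told from no difference, and Pdyn was too sparse. Pou3f2 and Dlk1, which are not among the markers, are given beside them. Caprin2 had a log2 ratio of 1.12 [0.37 to 1.79] against -0.16 in other cells. Gal was at 0.65 [0.01 to 1.21] against -0.35, and Pou3f2 at 1.29 [0.17 to 2.28] against -0.12. In cells rich in both hormones Pou3f2 was at 258 CPM in the Sim1 heterozygous and 415 CPM in the control library, with overlapping intervals (118 to 489 and 321 to 528). Caprin2 in such cells was at 544 [327 to 849] and 484 CPM [382 to 605], which overlap as well. Gal was at 1946 [1511 to 2468] and 892 CPM [752 to 1052]. For Angpt1 the ratio was 0.40 [-0.54 to 1.17], for Gsta4 -0.20 [-1.93 to 0.92] and for Dlk1 0.02 [-0.72 to 0.63]. Those 3 intervals hold 0 and are wide, so differences up to about their bounds were not detectable at this depth. Prohormone processing genes had a median of 0.24 in members, with 3 of 14 tested at least 1.5-fold higher and 2 lower, against 0.10 over all genes tested. Those shares lie near the 19% and 13.5% over all genes, so the list did not stand out.

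**Figure D5:**
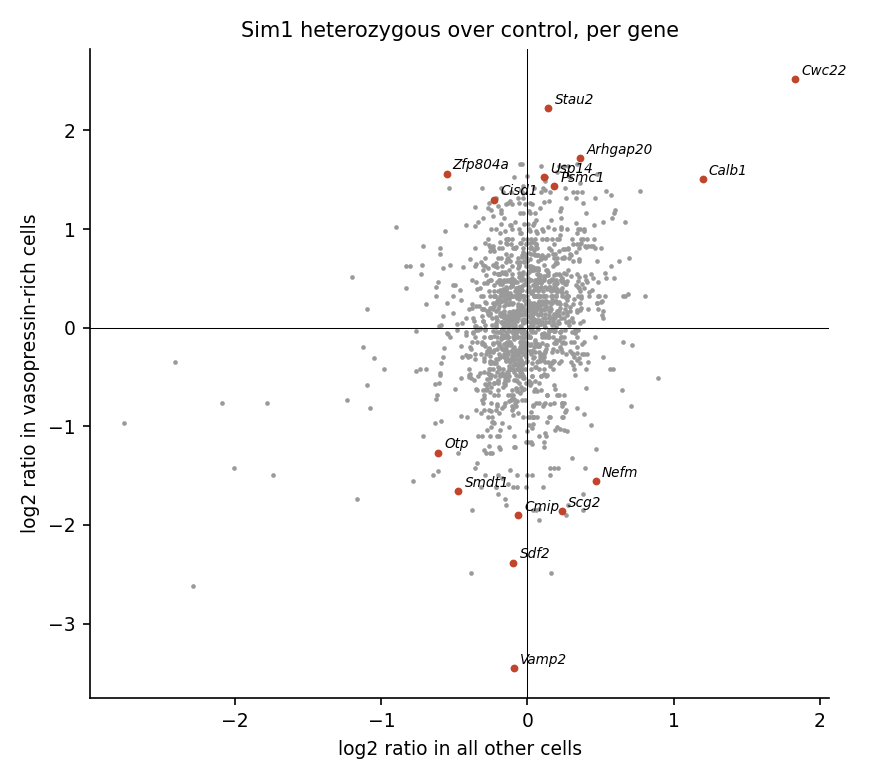
Log2 ratio of Sim1 heterozygous over control in all other cells (x axis) and in vasopressin-rich cells (y axis), 1 point per gene tested, with the named genes in red. Gh, at 0 in every Sim1 heterozygous cell, is not drawn. Cwc22 and Calb1 are high on both axes, and Vamp2 and Scg2 are low on the y axis only.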

How the data were processed

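Single-cell RNA of 1 Sim1 heterozygous and 1 control library was analysed. The authors deposited raw UMI counts, once by library and once merged, and both forms held identical values. Per the submitters' processing notes, bcl2fastq, Picard, STAR 2.6.0b and Seurat 3 were used with mm10. Not given in the sources used here are the gene annotation, the counting tool, whether it used strand, and how barcodes were chosen. Barcodes with under 300 genes (22 Sim1 heterozygous, 1 control) were left out, and no barcode was shared between libraries. Coordinates are from GENCODE M21, in which 23481 of 24905 symbols were found.

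The members, the 25 gene lists and the rules were chosen with earlier results of these data known. Against other cells a gene needed 20 observed or expected member UMIs in the control and 5 in the Sim1 heterozygous library, and in the other comparisons 20. Named genes were the 25 highest and 10 lowest by the ratio nearer 0 of both libraries, 8 and 8 between genotypes and 10 and 10 against oxytocin-rich cells by the interval bound nearer 0, the markers, and up to 4 members of each list. Any further gene named was chosen after its values were seen. Avp, Oxt, mitochondrial, ribosomal protein, sex-linked, haemoglobin, clone-named and pseudogenes were not ranked. Glia-like cells had at least 5 glial UMIs and more of these than neuronal ones. Poisson, Clopper-Pearson and conditional binomial exact intervals were computed with Python 3.11.15, numpy 2.4.6, scipy 1.17.1 and pandas 2.3.3. Only the conditional binomial interval was tested on simulated data. These were Poisson sums, so the test does not cover UMIs clumped in a few cells.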

Additional observations from a re-analysis of the deposited data

How the results depend on the processing

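No paired analysis was possible because each genotype has 1 library. Members number few, so depth limits the counts of genes past a fold. Against other cells the 58 higher and 33 lower genes were 25 and 11 with under 3 Oxt UMIs, 25 and 17 with the minimum of UMIs doubled, and 969 and 98 with no minimum beyond 1 UMI. The split was 47 and 46 when scaled by the median ratio and 49 and 45 with Avp and Oxt in the totals. Between genotypes the 294 higher and 209 lower were 138 and 101, 60 and 59, and 6508 and 1108 under the same first 3 alternatives. Against oxytocin-rich cells the 30 higher and 14 lower were 18 and 16 with at least 30 Avp UMIs, 14 and 14 with under 3 Oxt UMIs, 4 and 3 with the minimum doubled and 3540 and 832 with none, 38 and 5 with the hormones in the totals, and 94 and 127 against cells rich in Oxt only. Fewer or more genes and cells enter by construction of the minimum and limit alternatives; for the others the cause was not tested. The control share was 1.14% with under 3 Oxt UMIs, and the ratio of shares lay between 0.337 and 0.465 over the settings tried. Of 1220 values of 106 gene ratios under alternatives, 1186 stayed within the main value's 95% interval, 32 moved outside it with the same sign or without having passed the fold, and 2 that had passed the fold changed sign. These were Crh in the Sim1 heterozygous library without the members with at least 3 Crh UMIs (log2 -0.66) and Zfp804a against cells rich in Oxt only (1.42), both added after the data were seen. All 25 genes named as higher stayed past 2-fold in both libraries, except Akap12 with under 3 Oxt UMIs and Crh without those members.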

Other observations

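Of 6 tested genes on the neuropeptide list, 3 were at least 2-fold higher in both libraries (Gal, Crh and Angpt1) and 2 lower (Cck and Pmch), beside 4.69% and 2.67% of all genes tested. Angpt1 was on that list although it encodes angiopoietin-1 and not a neuropeptide. Gal and Angpt1 are also markers chosen for these neurons, so the count of higher genes is no independent result. Cartpt, which encodes a further neuropeptide, passed in neither direction, at 311 CPM in Sim1 heterozygous members against 226 in other cells and 268 CPM in control members against 142. Tac1, the substance P precursor, was too sparse to test, at 138 CPM against 171 in the Sim1 heterozygous and 249.7 CPM against 169 in the control library. Sst, somatostatin, had 2 UMIs (69.2 CPM) in Sim1 heterozygous and 0 in control members, against 164 and 140 CPM in other cells, and was at least 5.06-fold lower in the control library. Nts, neurotensin, had 1 UMI and 0 UMIs in members, and was at least 4.59-fold lower in the control library. Cck, cholecystokinin, was at 34.6 CPM in Sim1 heterozygous members against 623 in other cells, and 148 CPM in control members against 486. Pmch, melanin-concentrating hormone, had 3 UMIs in members of either library, against 379 CPM in other Sim1 heterozygous and 1367 CPM in other control cells.

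Of the imprinted genes on the list, 2 of 10 tested were at least 2-fold higher in both libraries and 0 lower, beside the same shares over all genes. Zdbf2, higher in both libraries as well, is not on that list. Besides Dlk1 the list's other higher gene was Nap1l5, at 3564 CPM in Sim1 heterozygous members against 1544 in other cells, and 3024 CPM in control members against 1201. Meg3, which is expressed from the same imprinted domain as Dlk1 but from the maternal allele, was at 11175 CPM against 11894 in the Sim1 heterozygous library and 9554 CPM against 11147 in the control library. Magel2, a gene of the Prader-Willi region, was too sparse to test, with 173 CPM against 38.1 and 120 CPM against 42.6. The immediate early gene Fos had 8 UMIs (277 CPM) in Sim1 heterozygous members against 47.6 CPM in other cells, and 14 UMIs (129 CPM) in control members against 31.5 CPM. These values were chosen after they were seen.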
